A study of Mus musculus with 12 samples.

Results

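The genes described here are 31 genes of the unfolded protein response and the integrated stress response, read in laser-captured lower motor neurons of mice with and without a mutation of TDP-43. Their symbols were looked up in the deposited count table. All 31 were found once among 25965 entries, and all 31 were among the 16338 genes with enough counts to be tested. The mice were 5 months old, on a C57BL/6 background, and the neurons were of lumbar origin. The wild type mice were +/+, the heterozygotes Q331K/+ and the homozygotes Q331K/Q331K. Q331K is a knock-in amino acid change in TDP-43, the RNA-binding protein encoded by Tardbp, and it is known from people with amyotrophic lateral sclerosis. There were 12 libraries, 4 of each genotype. Nothing in the labels ties a library to a single animal, and the p-values therefore reflect only how much these libraries vary, which may be technical. Counts per gene cannot show the amino acid change itself.

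The unfolded protein response is the reaction of a cell to misfolded protein in the endoplasmic reticulum (ER). The sensors PERK (Eif2ak3), IRE1 (Ern1) and ATF6 (Atf6) sit in the ER membrane and act through the transcription factors ATF4, spliced XBP1 and cleaved ATF6, which switch on chaperones and the machinery that removes misfolded proteins. The integrated stress response meets this pathway at eIF2alpha, which PERK, GCN2 (Eif2ak4) and other kinases phosphorylate, and it raises ATF4, CHOP (Ddit3) and their targets. In motor neurons, ER stress has been studied widely in models of amyotrophic lateral sclerosis. Much of this signalling acts on protein phosphorylation, cleavage and translation, and the splicing of Xbp1 is not separated in counts per gene, so mRNA levels show only the transcriptional side.

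DNA elements through which the pathway is known to act were searched for in the promoters of these genes, and the matches are shown because the genes that carry an element are set beside the others below. In RefSeq promoters of build GRCm38.p6, from 250 bases before to 50 after the start, 27 of the 31 genes were matched; Derl1, Manf, Hyou1 and Atf6 were not. The ER stress response element, read as CCAAT and CCACG with 9 bases between them on either strand, was found in 8 of the 27 genes and in 39 of all 32851 promoters (0.119%). Each sequence is written 5′ to 3′ on the strand of its gene, with the element in capitals. It appears as its reverse complement where the match lies on the other strand, as for Calr, Creld2 and the second Hsp90b1 sequence. The Hspa5 match lies before the RefSeq start but within the deposited extent of the gene, and is printed with 5 flanking bases.
Hspa5, chr2:34772020-34772048, plus strand: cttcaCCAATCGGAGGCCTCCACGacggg
Hsp90b1, chr10:86705618-86705676, minus strand: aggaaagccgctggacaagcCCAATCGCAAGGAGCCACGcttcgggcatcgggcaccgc
Hsp90b1, chr10:86705513-86705571, minus strand: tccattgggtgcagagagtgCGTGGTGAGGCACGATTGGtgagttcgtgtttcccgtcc
Calr, chr8:84847055-84847113, minus strand: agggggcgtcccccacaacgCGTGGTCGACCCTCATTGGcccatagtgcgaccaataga
Canx, chr11:50325780-50325838, minus strand: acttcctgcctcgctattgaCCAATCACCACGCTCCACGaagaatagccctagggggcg
Creld2, chr15:88819500-88819558, plus strand: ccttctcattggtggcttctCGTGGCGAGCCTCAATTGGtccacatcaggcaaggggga
Dnajc3, chr14:118937807-118937865, plus strand: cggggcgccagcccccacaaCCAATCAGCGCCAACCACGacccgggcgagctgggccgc
Pdia6, chr12:17266471-17266529, plus strand: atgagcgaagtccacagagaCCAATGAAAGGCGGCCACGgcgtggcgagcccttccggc
Syvn1, chr19:6046512-6046570, plus strand: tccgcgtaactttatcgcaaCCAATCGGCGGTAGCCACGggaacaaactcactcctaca

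The related element, ATTGG and CCACG with 1 base between them on either strand, was found in Herpud1 alone among the 27 genes and in 12 of all promoters (0.0365%). The element TGATGNAA, of the kind bound by ATF4 with a partner, was found in Asns, Chac1, Herpud1 and Trib3 and in 1304 of all promoters (3.97%). TGACGTGG was found in 0 of the 27 genes and in 222 of all promoters (0.676%). At least 1 of these 4 elements was found in 12 of the 27 genes, and 15 held none. Matches of these letters are descriptions and were not tested for binding. The Asns match, too, lies before the RefSeq start but within the deposited extent of the gene, and has 5 flanking bases. The Trib3 match lies after the start and is not printed.
Herpud1, ATTGG and CCACG, chr8:94386357-94386407, plus strand: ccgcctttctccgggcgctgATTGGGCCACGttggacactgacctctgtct
Herpud1, TGATGNAA, chr8:94386297-94386344, plus strand: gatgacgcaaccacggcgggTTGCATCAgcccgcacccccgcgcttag
Asns, TGATGNAA, chr6:7693220-7693237, minus strand: ccacaTGATGAAActtcc
Chac1, TGATGNAA, chr2:119351029-119351076, plus strand: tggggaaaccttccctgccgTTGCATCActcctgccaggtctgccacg

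Total counts ran from 60886825 to 83504446 per library. Libraries of the same genotype differed by more than counting error in all 18 pairs, with a smallest chi-square per degree of freedom of 62.8. Levels are given as CPM, the usual scaled count per library total, after TMM scaling. The motor neuron markers Chat, Nefh, Prph, Isl1 and Mnx1 were detected in all 12 libraries, and the 9 listed motor neuron markers that were found in the table summed to between 4540 and 11449 CPM. Heterozygote library 1 and homozygote library 1 stood apart from the other 10. Their inhibitory interneuron markers summed to 20.7 and 15.7 CPM, against 186 to 450 in the others, with Gad2 at 0 in both and Gad1 and Slc6a5 at 0 in homozygote library 1. Of the excitatory interneuron markers, Slc17a6 was at 0.563 and 4.52 CPM, against 160 to 323, while Tacr1, of the same list, was higher (49.8 and 42.3 CPM) than in the other 10 (5.36 to 28.4). Their motor neuron markers summed to 11449 and 11356 CPM, against 4540 to 8412. No wild type library was of this kind. In captured tissue of this sort, fewer cells of a type and less RNA per cell cannot be told apart.

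In wild type neurons chaperones, a disulfide isomerase and Asns were the most abundant of these mRNAs, and the sensors were among the least. Per kilobase of exon (GENCODE M21), the wild type level was 134 ± 7.82 CPM per kilobase (SD, n = 4) for Hspa5, which encodes BiP, the main ER chaperone of the HSP70 family. It was 134 ± 2.53 for Calr, the lectin chaperone calreticulin. Asns, asparagine synthetase, followed at 121 ± 7.38 and Pdia3, a disulfide isomerase that works with calreticulin, at 120 ± 17.5, and these neighbours in the order did not differ beyond their spread. Atf4 lay at 55.2 ± 2.84 and Xbp1 at 37.5 ± 1.2 CPM per kilobase. At the low end, Eif2ak3 was at 4.22, Atf6 at 2.66, Eif2ak4 at 2.15, Edem1 at 1.81, Trib3 at 0.393 ± 0.402 and Ern1 at 0.355 ± 0.0911 CPM per kilobase. The last pair did not differ beyond their spread.

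**Figure D1:**
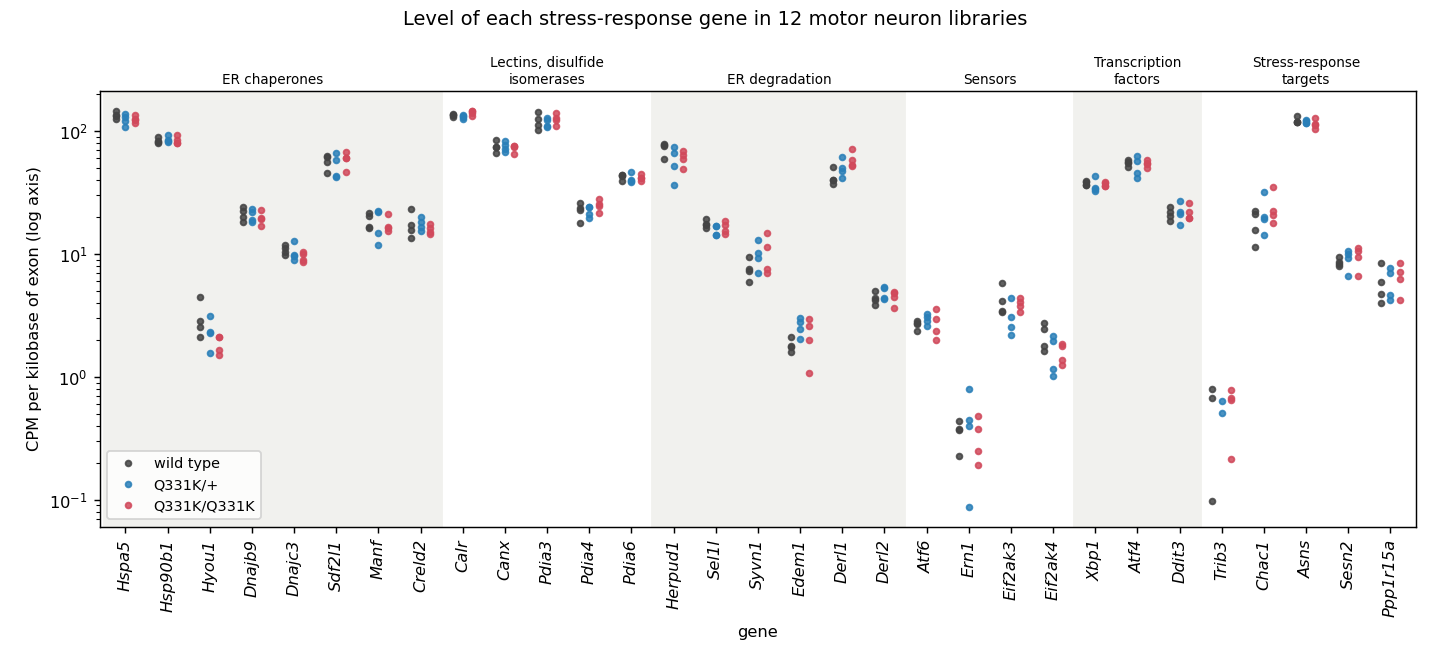
Level of each of the 31 genes in CPM per kilobase of exon, on a log axis, with 1 point per library coloured by genotype. Hspa5 and Calr lie highest in wild type, at 134 CPM per kilobase each, and Ern1 lies lowest at 0.355; zeros of Trib3 are not drawn.

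None of the 31 genes passed the test in any comparison of genotypes. In edgeR's quasi-likelihood test with Benjamini-Hochberg adjustment over all 16338 genes, 0 of 31 had an adjusted p below 0.05 in homozygotes against wild type, where 1 gene (0.00612%) was called in all. In heterozygotes against wild type and in homozygotes against heterozygotes, 0 of 31 were called, and 0.0% of all genes. On the slope over 0, 1 and 2 mutant alleles, 0 of 31 were called beside 0.00612% of all genes. The smallest adjusted p among the 31 genes was 0.986, 0.999, 1.0 and 0.978 in these tests in turn, and DESeq2 and limma-voom also called 0 of 31 in each. At an unadjusted p below 0.05, 2 of the 31 genes (Hyou1 and Derl1) were reached in homozygotes against wild type, where 4.82% of all genes were. The slope gave the same 2 genes, beside 4.67% of all genes, and the other pairs gave 0 genes, beside 4.1% and 2.97%. The test of any genotype difference called 0 of 31, beside 0.0% of all genes, and reached an unadjusted p below 0.05 for 1 (Derl1), beside 3.59%. These shares of the 31 genes are near those of all genes.

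Groups that did not overlap were as rare. All 4 homozygote libraries were above all 4 wild type libraries for 1 of the 31 genes, Derl1, beside 1.29% of all genes, and below them for 0, beside 2.12%. Heterozygotes were above wild type in this way for 0, beside 1.48%, and below for 0, beside 1.76%. Homozygotes were above heterozygotes for 0, beside 1.03%, and below for 0, beside 0.998%.

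The median log2 difference over the 31 genes was -0.02 in homozygotes against wild type, with 15 genes above zero and 16 below. It was -0.04 in heterozygotes against wild type, with 12 above and 19 below, and 0.02 in homozygotes against heterozygotes, with 17 above and 14 below. The median over all genes tested was 0.0 in each comparison. The comparisons with wild type share its 4 libraries. Summed over the 31 genes, the level was 3821 ± 154 CPM (SD, n = 4) in wild type, against 3717 ± 207 for heterozygotes and 3808 ± 162 for homozygotes, and these sums overlapped within their spread.

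The intervals show which sizes of difference the data leave for single genes. In homozygotes against wild type, the 95% interval lay within a 1.5-fold difference either way for 20 of the 31 genes and within 2-fold for 26. The 5 genes not held within 2-fold were Eif2ak4, Chac1, Trib3, Hyou1 and Ern1. In heterozygotes against wild type, 21 and 27 genes lay within 1.5-fold and 2-fold, and in homozygotes against heterozygotes 23 and 29. The median SD of log2 CPM within a genotype was 0.22 for the 31 genes and 0.38 for all genes tested, with median levels of 52.3 and 14.5 CPM.

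**Figure D2:**
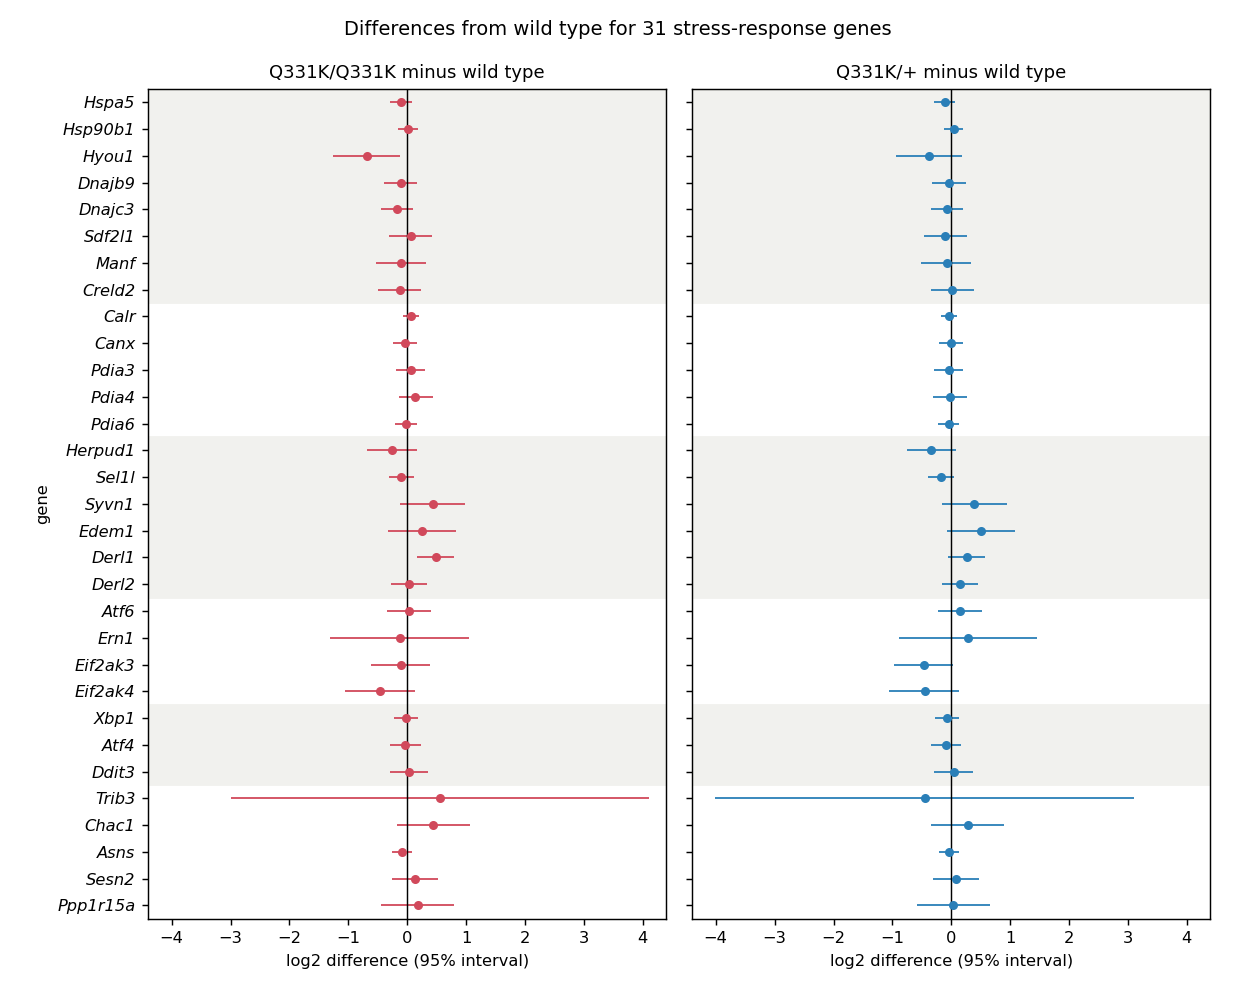
Log2 difference of each of the 31 genes from wild type, in homozygotes and in heterozygotes, with 95% confidence intervals from the edgeR model. In homozygotes the intervals of Derl1 (0.16 to 0.79) and Hyou1 (-1.26 to -0.12) leave out zero before adjustment for the number of genes, and no adjusted p was below 0.986.

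Among the 8 ER chaperones and their partners, 2 lay above wild type and 6 below in homozygotes, with a median of -0.11. None passed the test. In heterozygotes 2 lay above and 6 below, with a median of -0.08. Without the libraries that stood apart, 1 lay above and 7 below in either mutant genotype. The 7 in heterozygotes included Hsp90b1 and Manf, at 0.0 after rounding, and Sdf2l1, at -0.01. The medians were then -0.09 in homozygotes and -0.03 in heterozygotes. Hspa5 was at 609, 528, 563 and 568 CPM in wild type, 554, 579, 506 and 457 in heterozygotes, and 572, 518, 493 and 529 in homozygotes. The genotypes overlapped, and the lowest and highest libraries were 1.33-fold apart. The log2 difference of Hspa5 was -0.10 in homozygotes (SE 0.08, 95% interval -0.29 to 0.08, edgeR adjusted p = 0.99) and -0.11 in heterozygotes (SE 0.08, -0.30 to 0.07). Either interval lies within a 1.5-fold difference.

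Hyou1 (ENSMUSG00000032115, chr9:44379490-44392369, GRCm38) encodes a large HSP70-related chaperone of the ER that serves as a nucleotide exchange factor of BiP. It was at 32.5, 15.3, 18.4 and 20.6 CPM in wild type, 22.6, 11.4, 16.4 and 16.6 in heterozygotes, and 10.9, 15.4, 11.9 and 15.4 in homozygotes. Wild type library 1 was the highest of all 12, and the homozygotes met the wild type range only at its lowest library. The log2 difference was -0.69 in homozygotes (SE 0.26, 95% interval -1.26 to -0.12, edgeR adjusted p = 0.986). Without wild type library 1 it was -0.42 (adjusted p = 0.798). In heterozygotes it was -0.37 (SE 0.26, interval -0.94 to 0.19), and -0.11 without that library. Without the libraries that stood apart, the log2 difference of Hyou1 was -0.55 in heterozygotes (edgeR adjusted p = 0.962) and -0.6 in homozygotes (edgeR adjusted p = 0.921).

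Of the other chaperone genes, Hsp90b1, the ER form of HSP90, was at 323 to 376 CPM over the 12 libraries, with a log2 difference of 0.02 in homozygotes. Dnajb9 and Dnajc3, J-domain partners of BiP, gave -0.11 and -0.18, and Manf and Creld2, secreted or luminal proteins induced by ER stress, gave -0.11 and -0.13. Sdf2l1, a partner of ER J-domain proteins, gave 0.06. All of these had adjusted p of 0.986 or more in edgeR. Manf shares its stretch with Vprbp, on the opposite strand, and with Rbm15b, on the same strand. Where the genes overlap, reads of Vprbp cannot be told apart without strand, and strand would not separate those of Rbm15b. The counts of Manf are therefore uncertain.

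The 5 lectin chaperones and disulfide isomerases had a median log2 difference of 0.06 in homozygotes, with 3 above wild type and 2 below, and of -0.04 in heterozygotes. Without the libraries that stood apart, the homozygote median was 0.0. Calr was at 392, 390, 390 and 376 CPM in wild type, 386, 384, 371 and 360 in heterozygotes, and 401, 415, 383 and 420 in homozygotes. Of 4 homozygote libraries 3 lay above every library of the other genotypes, and homozygote library 3 lay among those. The log2 difference of Calr between homozygotes and heterozygotes was 0.11 (SE 0.06, 95% interval -0.02 to 0.24, edgeR adjusted p = 1.0), and it was 0.06 against wild type. Canx, calnexin, the membrane-bound relative of Calr, gave -0.04 in homozygotes, and Pdia3, Pdia4 and Pdia6 gave 0.06, 0.14 and -0.02.

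The 6 genes of ER-associated degradation, which carries misfolded proteins back to the cytosol for the proteasome, had a median log2 difference of 0.14 in homozygotes and 0.21 in heterozygotes, each with 4 genes above wild type and 2 below. Without the libraries that stood apart these medians were 0.09 and 0.13. Derl1 (chr15:57869502-57892418, GRCm38) encodes Derlin-1, a membrane protein of the channel through which these proteins leave the ER. It was at 168, 134, 133 and 123 CPM in wild type, 206, 158, 166 and 139 in heterozygotes, and 238, 172, 192 and 175 in homozygotes. Every homozygote library was above every wild type library, and the heterozygotes overlapped both.

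The log2 difference of Derl1 was 0.48 in homozygotes against wild type (SE 0.14, 95% interval 0.16 to 0.79, a 1.39-fold difference), with an edgeR adjusted p = 0.986. It was 0.26 in heterozygotes (SE 0.14, -0.05 to 0.58; 0.15 without heterozygote library 1). Between homozygotes and heterozygotes it was 0.22 (SE 0.14, -0.10 to 0.53), and 0.11 without homozygote library 1 or 0.13 without heterozygote library 4. The slope was 0.24 per mutant allele (SE 0.07, 0.09 to 0.39, edgeR adjusted p = 0.978). With the replicate number as a block, the slope was again 0.24 and its adjusted p was 0.037, which passes; the labels do not say what a number stands for. Derl1 was also highest in the libraries that stood apart, at 206 and 238 CPM against 123 to 192 in the other 10. Without both of them, homozygotes were at 180 ± 10.7 CPM (SD, n = 3), heterozygotes at 154 ± 14 (n = 3) and wild type at 139 ± 19.7 (n = 4). The log2 difference in homozygotes was then 0.37 (SE 0.11, edgeR adjusted p = 0.873). The homozygotes, at 172 to 192 CPM, were still above every wild type library, as for 2.48% of all genes. In the other direction, Asns alone of the genes described here had homozygotes below every wild type library, beside 3.23% of all genes.

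Syvn1 encodes HRD1, the ubiquitin ligase of ER-associated degradation. It was at 45.6, 35.0, 28.9 and 36.9 CPM in wild type, 63.1, 34.2, 49.7 and 45.2 in heterozygotes, and 71.8, 55.5, 33.7 and 36.3 in homozygotes. The genotypes overlapped, and the libraries that stood apart were the highest, at 63.1 and 71.8 CPM against 28.9 to 55.5. The log2 difference in homozygotes was 0.43 (SE 0.25, 95% interval -0.12 to 0.98, edgeR adjusted p = 0.986), and 0.19 without those libraries. Syvn1 overlaps Mrpl49, whose counts over its whole extent were 190% of those of Syvn1. Reads in the shared stretch cannot be told apart without strand, and the size of that stretch was not measured.

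Edem1, a lectin that picks glycoproteins for degradation, was at 10.3, 13.5, 11.5 and 11.3 CPM in wild type, 15.9, 17.9, 13 and 19.4 in heterozygotes, and 19.2, 16.6, 6.94 and 12.8 in homozygotes. Heterozygote library 3 reached into the wild type range, and the homozygotes spread on both sides of it. The log2 difference was 0.51 in heterozygotes (SE 0.27, 95% interval -0.08 to 1.09, edgeR adjusted p = 0.999) and 0.25 in homozygotes (SE 0.27, -0.33 to 0.83). The homozygote value was 0.06 without homozygote library 1, 0.16 without library 2 and 0.48 without library 3. Herpud1, a membrane protein that helps to assemble the degradation complex, was at 169 ± 20.3 CPM (SD, n = 4) in wild type, against 134 ± 39.4 for heterozygotes and 141 ± 19.9 for homozygotes. The libraries that stood apart were its lowest, at 84.6 and 115 CPM against 122 to 183. Sel1l, the partner of HRD1, and Derl2 gave log2 differences of -0.10 and 0.03 in homozygotes, and Derl2 overlaps Mis12, which had 73.4% of its counts.

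**Figure D3:**
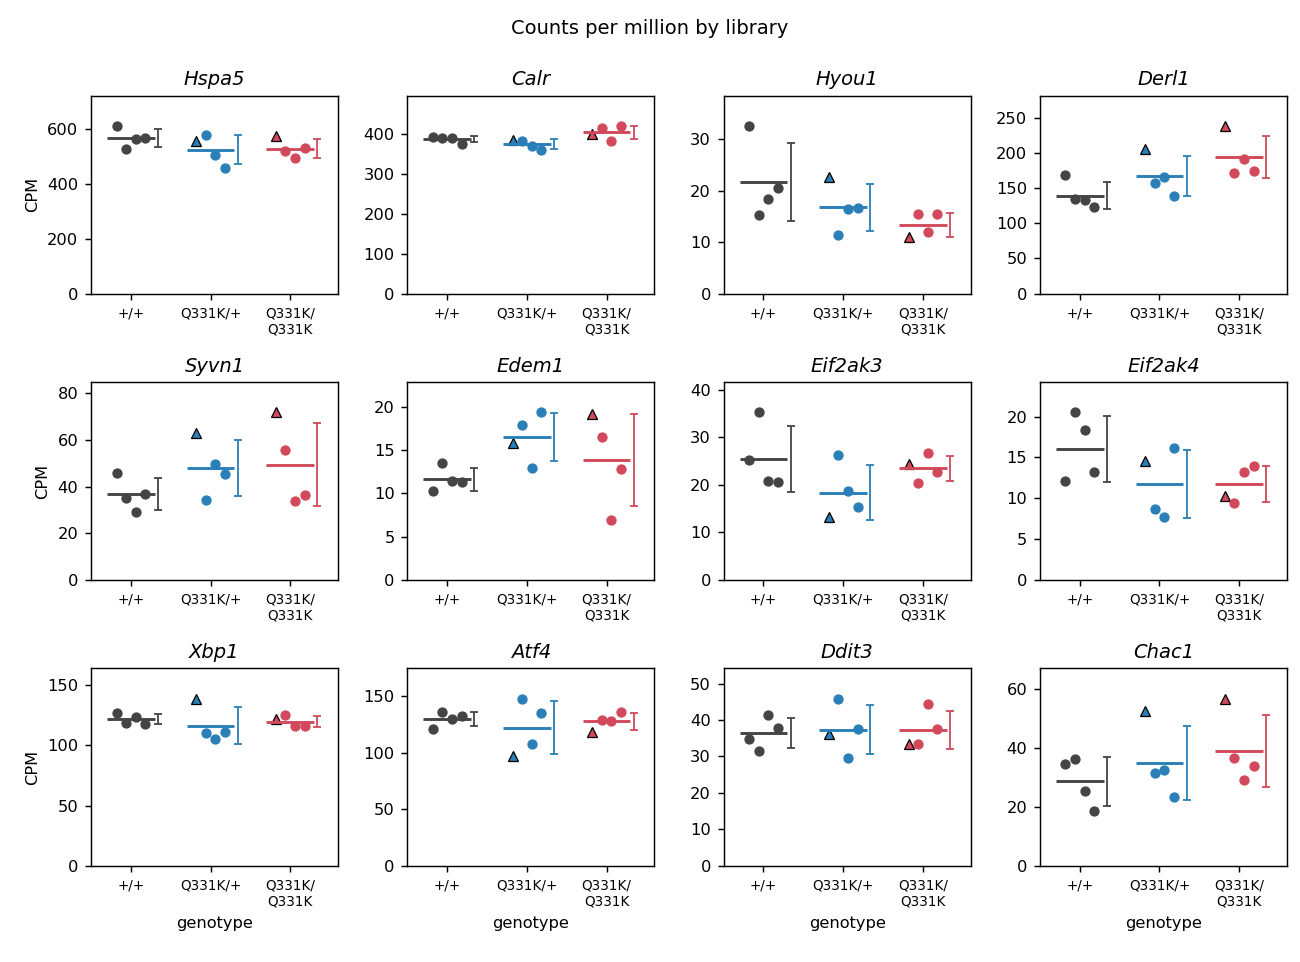
CPM of 12 of the genes in each library by genotype, with bars at the mean, error bars for the SD and triangles for heterozygote library 1 and homozygote library 1. Derl1 is the only panel where all 4 homozygotes lie above all 4 wild type libraries, and its triangles, at 206 and 238 CPM, are the highest points.

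Among the 4 sensors, 1 lay above wild type and 3 below in homozygotes, with a median log2 difference of -0.12, which was -0.03 without the libraries that stood apart. Eif2ak3 was at 25.1, 35.2, 20.8 and 20.5 CPM in wild type, 13.1, 26.2, 18.6 and 15.3 in heterozygotes, and 24.3, 20.3, 26.6 and 22.7 in homozygotes. Heterozygote libraries 1, 3 and 4 were below every other library, and heterozygote library 2 was not. The log2 difference was -0.47 in heterozygotes (SE 0.23, 95% interval -0.98 to 0.03, edgeR adjusted p = 0.999), -0.11 in homozygotes (SE 0.23, -0.62 to 0.39) and 0.36 between homozygotes and heterozygotes (SE 0.23, -0.15 to 0.87). Without wild type library 2, the highest of all, the heterozygote value was -0.27 and the homozygote value 0.09. The difference between mutant genotypes was 0.23 without heterozygote library 1 and 0.58 without heterozygote library 2.

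Eif2ak4 encodes GCN2, which senses uncharged tRNA. It was at 12.1, 20.5, 18.4 and 13.2 CPM in wild type, 14.5, 8.71, 7.63 and 16.1 in heterozygotes, and 10.3, 9.40, 13.2 and 13.9 in homozygotes, and the genotypes overlapped. The slope per mutant allele was -0.23 (SE 0.13, 95% interval -0.51 to 0.06, edgeR adjusted p = 0.978), and -0.15 without wild type library 2. The log2 difference of Eif2ak4 was -0.46 in homozygotes (SE 0.27) and -0.45 in heterozygotes (SE 0.27), or -0.29 without heterozygote library 3. Between the mutant genotypes it was 0.0 (SE 0.27), and -0.16 to 0.18 over the alternatives. Atf6 was at 18.5 to 32.7 CPM over the 12 libraries, with a log2 difference of 0.03 in homozygotes. Ern1 had 48 to 482 counts per library, and its interval in homozygotes ran from -1.31 to 1.05.

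The 3 transcription factors had a median log2 difference of -0.02 in homozygotes and -0.07 in heterozygotes. Xbp1, the substrate of IRE1 splicing, was at 127, 119, 124 and 118 CPM in wild type, 139, 110, 105 and 111 in heterozygotes, and 122, 125, 116 and 116 in homozygotes. Its log2 difference in homozygotes was -0.02 (SE 0.09, 95% interval -0.22 to 0.18) and in heterozygotes -0.07 (SE 0.09, -0.27 to 0.13). Heterozygote library 1 was the highest of all 12, and the other heterozygotes, at 105 to 111 CPM, were below every wild type library. Without the libraries that stood apart, 3.35% of all genes had heterozygotes below wild type in this way, and the Xbp1 difference was -0.17 (SE 0.07, edgeR adjusted p = 0.947). Atf4 was at 121, 136, 130 and 133 CPM in wild type, 97.2, 148, 108 and 135 in heterozygotes, and 118, 129, 128 and 136 in homozygotes. The heterozygotes held both its lowest and its highest library, and the log2 difference in homozygotes was -0.03 (SE 0.12, -0.29 to 0.23).

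Ddit3, the stress-induced factor CHOP, was at 34.7, 31.6, 41.3 and 37.9 CPM in wild type, 36.2, 45.9, 29.5 and 37.6 in heterozygotes, and 33.5, 33.3, 44.4 and 37.5 in homozygotes. The genotypes overlapped, and the log2 difference in homozygotes was 0.03 (SE 0.15, 95% interval -0.30 to 0.36). Ddit3 overlaps Mars and Gm4189, which had 195% of its counts, so part of its signal may be theirs. The edgeR adjusted p of each of these 3 factors was 1.0 in homozygotes against wild type and 0.999 in heterozygotes.

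The 5 targets of the integrated stress response had a median log2 difference of 0.18 in homozygotes, with 4 above wild type and 1 below, and of 0.03 in heterozygotes. Without the libraries that stood apart these medians were 0.08 and -0.03. Chac1, a glutathione-degrading enzyme induced by ATF4, is given in full after its values were seen. It was at 34.6, 36.5, 25.5 and 18.6 CPM in wild type, 52.6, 31.5, 32.5 and 23.3 in heterozygotes, and 56.9, 36.7, 29.2 and 33.9 in homozygotes. The libraries that stood apart were the highest, at 52.6 and 56.9 CPM against 18.6 to 36.7. Its log2 difference in homozygotes was 0.44 (SE 0.29, 95% interval -0.18 to 1.07, edgeR adjusted p = 0.986), and 0.21 without them.

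Of the other targets, Asns gave a log2 difference of -0.09 in homozygotes. Sesn2, a stress-induced regulator of mTORC1 signalling, gave 0.13, and Ppp1r15a, the eIF2alpha phosphatase subunit GADD34, gave 0.18. Without the libraries that stood apart, Asns was at 283 to 311 CPM in homozygotes, below every wild type library, at 321 to 361. The log2 difference of Asns was then -0.14 (SE 0.07, edgeR adjusted p = 0.979). Trib3, a pseudokinase induced by ATF4 and CHOP, had 0 to 128 counts per library and was at 0 in 3 libraries. Its counts varied from 13 to 128 among wild type libraries above 0, and wild type library 4, the deepest of all 12, was at 0. Its interval in homozygotes ran from -3.0 to 4.11, the widest of the 31 genes.

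**Figure D4:**
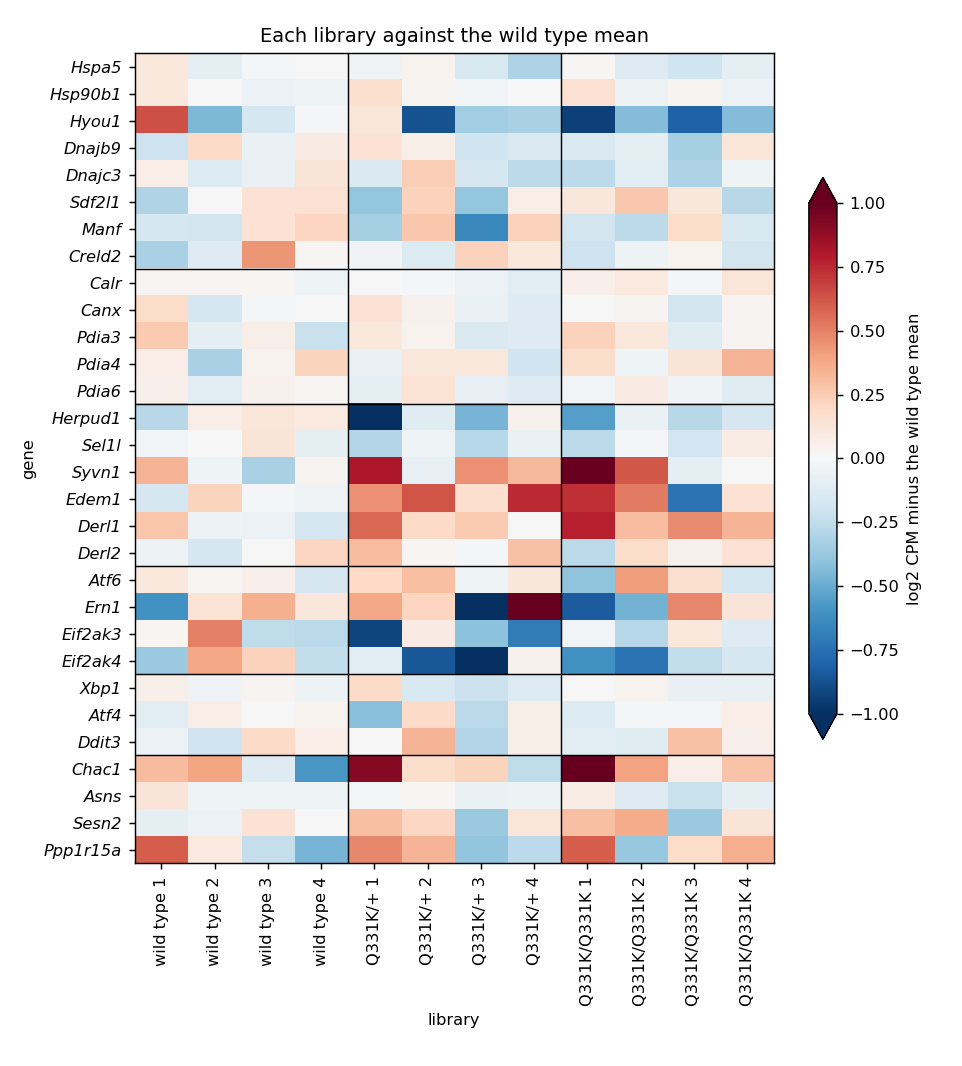
Log2 CPM of 30 of the genes (Trib3, with libraries at 0, is left out) in each library, minus the wild type mean, on a colour range from -1 to 1. Colours of both signs occur in each genotype, and Derl1 is above the wild type mean in all 4 homozygote libraries.

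Over the 31 genes, 4 (12.9%) had both of the libraries that stood apart above the other 10, namely Hsp90b1, Syvn1, Derl1 and Chac1, and 1 (3.23%), Herpud1, had both below. Among all genes tested these shares were 10.3% and 10.6%. The part of interneuron RNA in these genes' values was not tested.

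Genes with and without the ER stress response element are set side by side with no test. In homozygotes the 8 genes with the element had a median log2 difference of -0.03, with 3 above wild type and 5 below, and the 19 without it had 0.03, with 10 above and 9 below. In heterozygotes the medians were -0.02 and -0.04.

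Across libraries, Hspa5 and Dnajc3 moved together. The relation was read over the 10 libraries other than the pair that stood apart, and 19 such relations were computed, 12 with Hspa5 and 7 with Atf4. Hspa5 and Dnajc3 gave Pearson's r = 0.85 (permutation p = 0.00216, adjusted p = 0.041) and Spearman's rho = 0.93 (permutation p = 0.00041, adjusted p = 0.00779). Without the libraries farthest from the median of Hspa5, wild type 1 and heterozygote 4, r was 0.91, and over deviations from the genotype means it was 0.90. It was the 1 relation of 19 to pass. These values were taken on log2 CPM. Of 16310 distinct gene symbols tested, 0.129% had an r with Hspa5 at least as high over the same libraries. Hspa5 and Canx gave r = 0.77 (permutation p = 0.0091, adjusted p = 0.0864), a value reached by 0.601% of all genes. Of the 12 relations with Hspa5, 10 were positive, as were 49.8% of those of all genes.

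**Figure D5:**
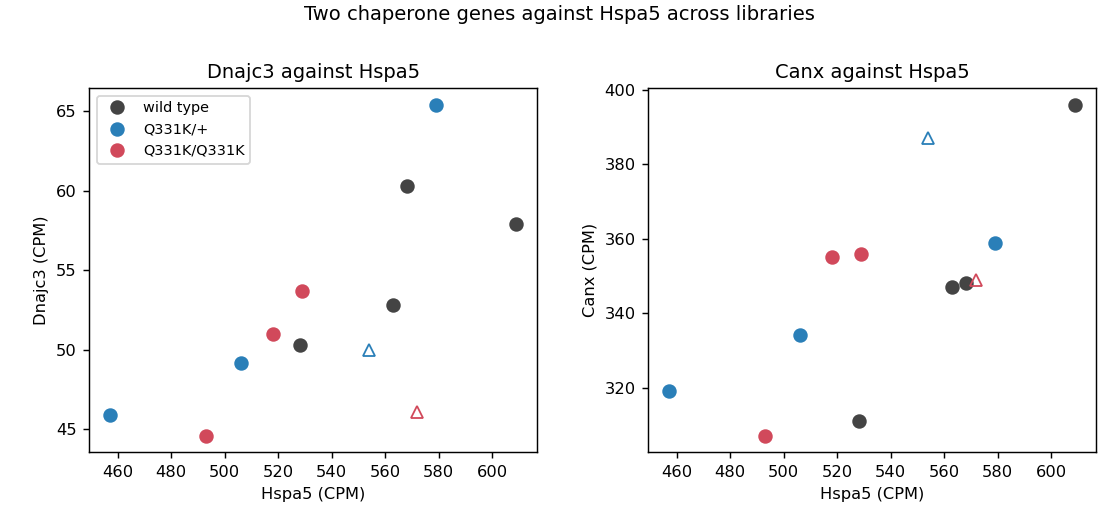
CPM of Dnajc3 and of Canx against CPM of Hspa5, 1 point per library coloured by genotype, with open triangles for the 2 libraries left out of the correlation. Over the 10 filled points r of log2 CPM was 0.85 for Dnajc3 and 0.77 for Canx.

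For Atf4, 0 of 7 relations passed. Atf4 and Ddit3 gave r = 0.62 (permutation adjusted p = 0.203), which was -0.11 without heterozygote libraries 2 and 3, so it rests on those libraries; 3.76% of all genes had an r with Atf4 at least as high. Atf4 and Sesn2 also gave r = 0.62 (permutation adjusted p = 0.203), which was 0.25 without those libraries. Atf4 and Asns gave r = 0.02, and Atf4 and Chac1 gave -0.16. Of the 7 relations with Atf4, 6 were positive, as were 49.7% of those of all genes. Without heterozygote libraries 2 and 3, r was -0.51 for Trib3, -0.4 for Ppp1r15a, -0.34 for Asns, -0.23 for Chac1 and -0.07 for Eif2ak3. Only the relation with Sesn2 then stayed positive, so the count of positive relations rests on those libraries.

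A further 98 genes of the same pathways were read from lists of other folding, degradation, sensing and target genes, and 96 of them were tested. In edgeR 0 of 96 passed in any comparison, and 4 (4.17%) had an unadjusted p below 0.05 in homozygotes against wild type, beside 4.82% of all genes. In that comparison 49 lay above zero and 47 below, with a median log2 difference of 0.0. Dnajc1, an ER J-domain protein, was at 9.1 to 10.8 CPM in wild type, against 11.8 to 13.4 for heterozygotes and 11.9 to 17.0 for homozygotes. Both mutant genotypes lay above the wild type range, as for 1.29% of all genes in homozygotes and 1.48% in heterozygotes, and the log2 difference in homozygotes was 0.57 (SE 0.17, edgeR adjusted p = 0.986). Sec61a1, a subunit of the ER translocon, gave 0.34 in homozygotes and 0.48 in heterozygotes.

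Among the other degradation genes, Edem2 and Os9, which act in the degradation of misfolded glycoproteins, gave log2 differences of 0.22 (SE 0.11) and -0.16 (SE 0.10) in homozygotes. Among the sensing genes, Eif2s1, which encodes eIF2alpha, gave 0.27 (SE 0.13), and Creb3l1 averaged 0.59 CPM in wild type, 0.403 for heterozygotes and 0.0638 for homozygotes, too low to compare. Of the other targets, Cars, a cysteinyl-tRNA synthetase, was at 101 ± 10.6 CPM (SD, n = 4) in wild type. It was at 86.5 ± 10.4 CPM in heterozygotes and 78.9 ± 6.56 in homozygotes, where the log2 difference was -0.35 (SE 0.11). Its homozygotes, at 72.6 to 88.1 CPM, were all below wild type, at 88.5 to 114, as for 2.12% of all genes. Cth, which makes cysteine from cystathionine, was at 3.88 ± 0.543, 1.1 ± 0.571 and 2.5 ± 1.65 CPM in the same order. The log2 difference of Cth in heterozygotes was -1.81 (SE 0.56). Its heterozygotes, at 0.563 to 1.86 CPM, were all below wild type, at 3.17 to 4.5, as for 1.76% of all genes. None of these passed, with an edgeR adjusted p of 0.986 or more against wild type.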

How the data were processed

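The deposited values were raw counts per gene, and per the submitters' processing notes reads were handled with Trim Galore 0.4.3, HISAT2 2.0.5 and build GRCm38. How reads were assigned to genes (program, annotation, strand) is not given in the sources used here. Per the labels' protocols, cDNA was amplified for 10 cycles. No molecular identifier is named, so counting intervals would cover counting error only. The 124 entries with a repeated symbol were kept apart.

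Genes were kept by filterByExpr, scaled by TMM and fitted over all 12 libraries with edgeR 4.0.16 in R 4.3.3 by the quasi-likelihood test, two-sided, adjusted by Benjamini-Hochberg over 16338 genes at 0.05. DESeq2 1.42.0, limma 3.58.1 (voom with quality weights), other filters, scalings and covariates, the replicate block and leaving out libraries made 21 alternatives. The scripts were tested on simulated counts over all genes. There the edgeR test called 1 of 42 genes changed 1.5-fold in homozygotes against wild type, and 38 of 95 changed 2-fold. Differences of these sizes can therefore go uncalled. Correlations used 100000 permutations in SciPy 1.17.1.

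The members, lists and tests were chosen with earlier results of these data known. Given per library were Hspa5, Xbp1, Atf4, Ddit3 and the 3 members with the smallest p in each pair of genotypes and on the slope, and of each other list the 2 genes with the smallest p over the 3 genotypes. Exon lengths came from GENCODE M21, and identifiers are printed only where the table's extent equals that of a GENCODE gene, as for 23 of the 31.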

Additional observations from a re-analysis of the deposited data

Results flagged for a closer look

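Groups of 4 libraries were checked for a library far from the other 3 of its genotype by Dixon's gap-to-range ratio at its 95% critical value. This marked 5 of 93 groups, and chance marks about 1 in 20 (5%). Calr was at 376 CPM in wild type library 4, against 390 to 392 in the others. Canx was at 307 CPM in homozygote library 3, against 349 to 356. Pdia6 was at 147 CPM in wild type library 2, against 161 to 164. In wild type library 1, Herpud1 was at 139 CPM, against 176 to 183, and Asns was at 361 CPM, against 321 in each of the others.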

How the results depend on the processing

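No gene of the 31 was called in any pair of genotypes under any of the 21 alternatives, and 1 was called on the slope under 1 of them. With the replicate block, the slope called 1 member, Derl1 (0.24 per allele, adjusted p = 0.037), and 4 genes in all, and Derl1 in homozygotes against wild type gave 0.48 (adjusted p = 0.0642). The labels do not say what a shared replicate number stands for. Of 12 same-numbered pairs, 3 had a correlation of deviations above 0.1 (range -0.05 to 0.45). Pairing was taken only if all did, so the block is an alternative here. By mean correlation per replicate number, 7 of 12 libraries correlated best with their own number. The 3 pairs above 0.1 were all of number 1, and the highest, 0.45, joined the libraries that stood apart. The other same-numbered pairs lay between -0.05 and 0.1. Over the alternatives Derl1 ran from 0.35 to 0.59 in homozygotes and Hyou1 from -0.82 to -0.42.

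Over all genes, DESeq2 called 13 in homozygotes against wild type, 13 in heterozygotes against wild type, 8 in homozygotes against heterozygotes, 12 on the slope and 5 for any genotype difference. On the simulated counts DESeq2 made 34, 29 and 39 false calls in these pairs in turn, against 5, 0 and 2 for edgeR. The 1 gene called in homozygotes against wild type became 0 without a filter, with genes detected as a covariate, with only the 8 libraries compared, without both libraries that stood apart, and without any single replicate (0 to 0). The 1 on the slope became 0 with that covariate and without both libraries, and 0 to 3 without single replicates. The causes were not tested. Leaving out single replicates, the median of the 31 genes ran from -0.03 to 0.01 in homozygotes against wild type and from -0.01 to 0.08 in homozygotes against heterozygotes.

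Small differences changed sign: of 44 differences of the 11 genes named by rule, 15 did so under at least 1 alternative, as did 59 of 124 over all 31 genes. Without single replicates, in homozygotes against wild type, Xbp1 ran from -0.04 to 0.01, Eif2ak3 from -0.20 to 0.09, Atf4 from -0.06 to 0.01 and Ddit3 from -0.06 to 0.10. Atf4 was 0.03 with genes detected as a covariate and 0.01 without both libraries that stood apart. Trib3, with 0 to 128 counts per library, and Ern1, with 48 to 482, had the widest intervals; whether depth sets them was not tested.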
